A study of Oryza sativa and Arabidopsis thaliana with 28 samples.

Results

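The Calvin cycle genes described here are 10 nuclear genes of Arabidopsis thaliana, for chloroplast enzymes of the cycle other than Rubisco and for the regulator CP12-2. They are GAPA1, GAPA2, GAPB, PRK, PGK1, FBA1, FBA2, SBPASE, CFBP1 and CP12-2, taken by their gene codes with earlier results of these data known. Of these 10, 9 have rows in the table of 21174 Arabidopsis genes measured by RNC-seq, and FBA2 (AT4G38970) has no row and was not analysed here. Sequencing reads at cytosines read as thymine were listed for 66875 positions, and 6 of the 9 genes lie on the plus strand, where a listed cytosine is a C of the transcript. Coordinates are those of the table on TAIR10.

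The 28 samples of the series come from Arabidopsis and rice and concern N4-acetylcytidine (ac4C), an acetylated cytidine in RNA, and the association of mRNA with ribosomes. All Arabidopsis plants were Col-0 wild-type seedlings on diluted MS medium with sucrose in long days, so no mutant enters the comparisons below. In RNC-seq, ribosomes with their nascent chains and mRNA (ribosome-nascent chain complexes, RNC) were pelleted through a sucrose cushion from a lysate with cycloheximide, and the RNC RNA was set against total-RNA mRNA libraries, with 2 libraries in each group and no age in their labels. In ac4C-seq, poly(A) RNA of seedlings labelled Day10 was reduced for 20 min with NaCNBH3 in acid, which makes ac4C read as T, or was kept in the acid buffer alone, with 1 library of each. Whole seedlings were used, so fewer cells of a type and less RNA per cell cannot be told apart. The mRNA totals, recovered from the steps of the values, were 39128550 and 39339118 reads. The RNC totals were taken as 47396552 and 43872238. They come from the ratio of the values of the 2 RNC libraries, which fixes them only up to a factor. On these totals, the table's genes took 44.6% to 48.0% of the reads. The green-tissue genes LHCB1.1 and LHCB1.2, for the main antenna protein of photosystem II, summed to 7600 and 7476 RPKM in mRNA, while 3 root-hair genes summed to 2.11 and 3.36 RPKM. Neither seed storage gene on the marker list has a row. RBCS1A, also listed for green tissue, has no row either, so a missing row does not show that a gene was silent.

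The Calvin cycle fixes CO2 in the chloroplast stroma. Rubisco makes phosphoglycerate, phosphoglycerate kinase and glyceraldehyde-phosphate dehydrogenase turn it into triose phosphate, and aldolase, the bisphosphatases and phosphoribulokinase rebuild the CO2 acceptor. Several of these enzymes are switched on in light through thioredoxin, and in the dark the small protein CP12 holds glyceraldehyde-phosphate dehydrogenase and phosphoribulokinase in an inactive complex. The proteins of the 10 genes are encoded in the nucleus, translated in the cytosol and imported into the chloroplast.

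The mRNA values are reads per kilobase of gene span (end minus start), scaled to the library's total reads (RPKM). The deposited RNC values were divided by other lengths, which bear no relation to the gene (Spearman rho 0.0236 with the span across 38973 transcript rows). Even the smallest length that gives whole reads is longer than the whole gene in 5449 rows (14.0%). RNC reads were therefore recovered from the deposited values and divided by the same span as the mRNA, which is the scale of every RNC level below unless the deposited scale is named. The recovery fixes the reads only up to a whole-number factor. Lengths were raised to multiples of 3 where the smallest one was not, which raised the reads 3-fold for GAPB and CP12-2 alone of the 9 genes. Each direction is given with its outcome if the reads were 2 times as many, and for these genes also without the raise.

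The mRNAs of all 9 genes were abundant, and on the span scale the RNC level lay below the mRNA level for 7 genes and above it for PRK and CP12-2. GAPB, the B subunit of the chloroplast dehydrogenase, stood furthest from the rest: its RNC level was 9.49-fold below its mRNA level (28.5-fold without the raise), against 1.40-fold for GAPA1 and 1.22-fold for GAPA2, which encode the A subunit. FBA1, a chloroplast aldolase, was 2.49-fold lower in RNC. PRK, for phosphoribulokinase, was 1.16-fold higher and CP12-2, for the regulator, 1.46-fold higher (2.06-fold lower without the raise). With limma on log2(RPKM + 1) and a Benjamini-Hochberg adjusted p under 0.05, 2 of the 9 were called higher and 7 lower in RNC, while of 14776 genes tested 12.7% were called higher and 29.1% lower. The median difference was -0.28 over the 9 genes and -0.08 over all tested genes. It was -0.09 over the 450 tested genes with at least 5000 reads in both mRNA libraries. The shares over all genes are not matched for mRNA level. All 9 abundant genes were called, some at small differences, while 8607 of the 14776 were not called. The part of level in these counts was not tested. Centring each library on its median raised every difference by 0.16, after which 2 of the 9 were higher, 5 lower and 2 not called, against 27.2% higher and 17.8% lower among all tested genes. With 2 times the RNC reads 7 of the 9 were higher and 2 lower, against 85.1% and 5.66% of 16204 genes, so the 7 are near the background. These p-values rest on the spread within each pair of libraries, and nothing in the labels says that they came from separate plants.

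**Figure D1:**
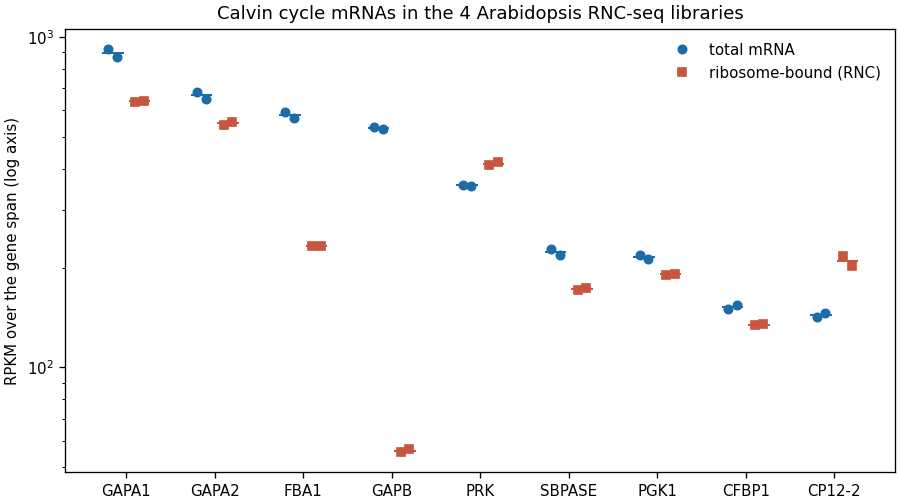
RPKM over the gene span on a log axis for each of the 9 genes, with 1 point per library (circles, total mRNA; squares, RNC) and a line at the mean of each pair. GAPB drops from 535 and 528 in mRNA to 55.4 and 56.7 in RNC, while PRK and CP12-2 are the genes whose RNC points lie above their mRNA points.

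PGK1 (AT3G12780, chromosome 3, 4060920 to 4063306, minus strand) encodes the phosphoglycerate kinase that uses ATP at the start of the reductive phase. Its level was 219 and 213 RPKM in the mRNA libraries and 191 and 192 RPKM in the RNC libraries. All RNC values lay below the mRNA values, and the groups did not overlap. The share of all tested genes without overlap is not given here. With 2 libraries a group, lack of overlap is therefore description only, for PGK1 and for the genes and ratios below. The difference of RNC minus mRNA was -0.17 (SE 0.0402, limma adjusted p = 0.00986), near the median of all genes. It was -0.01 after centring (limma adjusted p = 0.862) and would be 0.83 with 2 times the reads.

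GAPA1 (AT3G26650, chromosome 3, 9794862 to 9797045, plus strand) encodes an A subunit of the NADPH-using glyceraldehyde-phosphate dehydrogenase. It had the highest level of the 9 genes in every library, at 919 and 868 RPKM in mRNA and 638 and 642 RPKM in RNC. The groups did not overlap, with RNC below mRNA. The difference was -0.48 (SE 0.0389, limma adjusted p = 2.59e-05) and would be 0.52 with 2 times the reads.

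GAPA2 (AT1G12900, chromosome 1, 4392438 to 4394454, minus strand) is the other A subunit gene. Its level was 683 and 652 RPKM in mRNA and 543 and 552 RPKM in RNC, again without overlap and with RNC the lower group. The difference was -0.28 (SE 0.0382, limma adjusted p = 0.000507), and would be 0.71 with 2 times the reads. GAPA1 and GAPA2 are close paralogs, and how reads that match both were counted is not given in the sources used here.

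GAPB (AT1G42970, chromosome 1, 16127353 to 16129895, plus strand) encodes the B subunit, whose C-terminal extension resembles CP12. Its mRNA level was 535 and 528 RPKM, from 53221 and 52823 reads, so that its mRNA libraries held about as many reads as those of GAPA2. Its RNC level was 55.4 and 56.7 RPKM, from 6672 and 6318 recovered reads (2224 and 2106 without the raise). The groups lay far apart, and GAPB fell from the 4th place of the 9 genes in mRNA to the last in RNC. The difference of -3.22 (SE 0.0409, limma adjusted p = 6.45e-09) was the lowest of the 450 tested genes with at least 5000 reads in both mRNA libraries. Of all 14776 tested genes, 5 lay at or below it, GAPB included. GAPB was lower in RNC on every scale tried, at -1.96 as deposited, -3.06 after centring, -2.24 with 2 times the reads and -4.76 without the raise to a multiple of 3.

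A recovery that missed a whole factor would have to miss 10, beside the 3 already applied, for GAPB to stand level in RNC and mRNA. The RNC length would then be 10470 bases, and 23 of 38973 rows (0.0590%) have a recovered length of at least that. Those lengths come from the same recovery, which starts from the smallest length that fits, so this share cannot decide it. Whether such a factor applies to GAPB was not tested.

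The balance between the subunit mRNAs differed between the fractions. GAPA1 and GAPA2 together stood 2.99 and 2.88 times above GAPB in the mRNA libraries and 21.3 and 21.1 times above it in the RNC libraries. The ratio of GAPA1 to GAPA2 was 1.35 and 1.33 in mRNA and 1.17 and 1.16 in RNC. Neither ratio overlapped between the groups, and both rest on the recovered reads. Without the raise of the GAPB reads the first ratio in RNC would be 64.0 and 63.2.

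FBA1 (AT2G21330, chromosome 2, 9128122 to 9130619, minus strand) encodes a chloroplast aldolase, which joins triose phosphates to sugar bisphosphates. Its level was 592 and 569 RPKM in mRNA and 233 and 232 RPKM in RNC. RNC was far below mRNA without overlap, and the RNC pair was the tighter one. The difference was -1.31 (SE 0.0388, limma adjusted p = 1.66e-07), at or below which stood 25 of the 450 genes with at least 5000 mRNA reads. It would be -0.32 with 2 times the reads. The levels would come level at 3 times, with a longest length of 3204 bases, which 3.78% of rows reach. As these lengths come from the same recovery, that share cannot decide whether such a factor applies, which was not tested. FBA2 is a close paralog, and reads that match both may have been counted for either.

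CFBP1 (AT3G54050, chromosome 3, 20016837 to 20018822, plus strand) encodes the chloroplast fructose-bisphosphatase. Its level was 151 and 154 RPKM in mRNA and 135 and 135 RPKM in RNC, with RNC the lower group and no overlap. The difference was -0.18 (SE 0.0418, limma adjusted p = 0.0102), with -0.02 after centring (limma adjusted p = 0.791) and 0.82 with 2 times the reads.

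SBPASE (AT3G55800, chromosome 3, 20709294 to 20711640, plus strand) encodes sedoheptulose-bisphosphatase, which has no counterpart in glycolysis. Its level was 228 and 219 RPKM in mRNA and 171 and 174 RPKM in RNC. The groups did not overlap and RNC was lower. The difference was -0.37 (SE 0.0422, limma adjusted p = 0.000192), and would be 0.63 with 2 times the reads.

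PRK (AT1G32060, chromosome 1, 11532199 to 11534639, plus strand) encodes phosphoribulokinase, which makes the acceptor of CO2. Its level was 356 and 355 RPKM in mRNA and 409 and 418 RPKM in RNC, so the RNC libraries were the higher ones. The difference was 0.22 (SE 0.0367, limma adjusted p = 0.00183) on the span scale, 2.13 as deposited, 0.38 after centring and 1.22 with 2 times the reads. PRK was thus higher in RNC on each of these scales, and no scale with fewer RNC reads was tried for it.

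CP12-2 (AT3G62410, chromosome 3, 23090944 to 23091580, plus strand) encodes a CP12 protein of the chloroplast. Its level was 142 and 146 RPKM in mRNA and 217 and 203 RPKM in RNC, with RNC higher and no overlap. The difference was 0.54 (SE 0.0472, limma adjusted p = 4.01e-05), and 381 of the 14776 tested genes stood at or above it. This direction rests on the length: the smallest recovered length of CP12-2 was raised 3-fold to make it a multiple of 3, and without that step the difference would be -1.03, while with 2 times the reads it would be 1.54. As deposited, CP12-2 differed by -0.10 (limma adjusted p = 0.0637), and by -1.15 after centring on that scale (limma adjusted p = 1.35e-09).

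**Figure D2:**
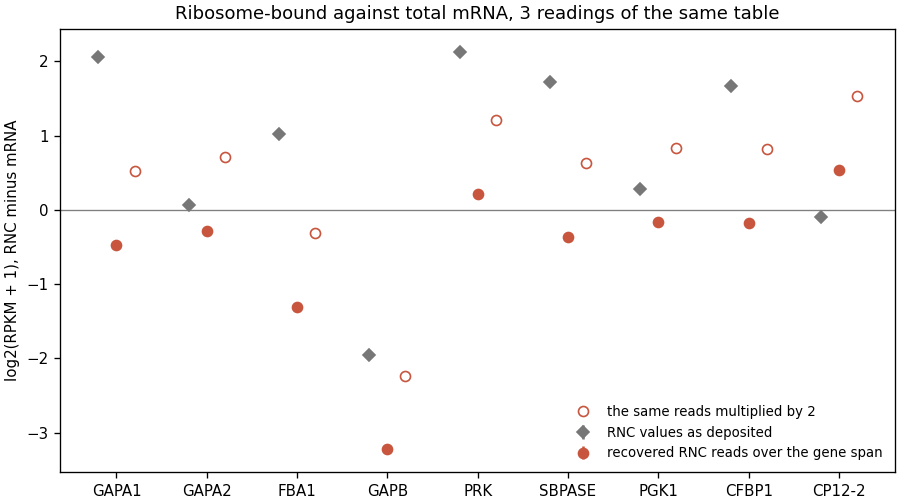
Difference of RNC minus mRNA on the log2(RPKM + 1) scale for each gene, from recovered reads over the gene span (filled circles, bars of 1 SE mostly hidden by the symbol), the same with 2 times the reads (open circles) and as deposited (diamonds). GAPB is below zero and PRK above zero in all 3, while GAPA1 goes from -0.48 to 0.52 with 2 times the reads and to 2.06 as deposited.

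The order of the mRNA levels was GAPA1, GAPA2, FBA1, GAPB, PRK, SBPASE, PGK1, CFBP1 and CP12-2. In RNC it was GAPA1, GAPA2, PRK, FBA1, CP12-2, PGK1, SBPASE, CFBP1 and GAPB. Without the raise of its reads CP12-2 would have 72.5 and 67.7 RPKM in RNC and move to the 8th place, between CFBP1 and GAPB. No neighbours in either order overlapped in their library values, although SBPASE and PGK1 lay within 219 to 228 and 213 to 219 RPKM in mRNA. Among all genes of the table, the mRNA means ranked from place 32 (GAPA1) to place 186 (CP12-2). GAPB held place 55 in mRNA and place 571 in RNC.

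**Figure D3:**
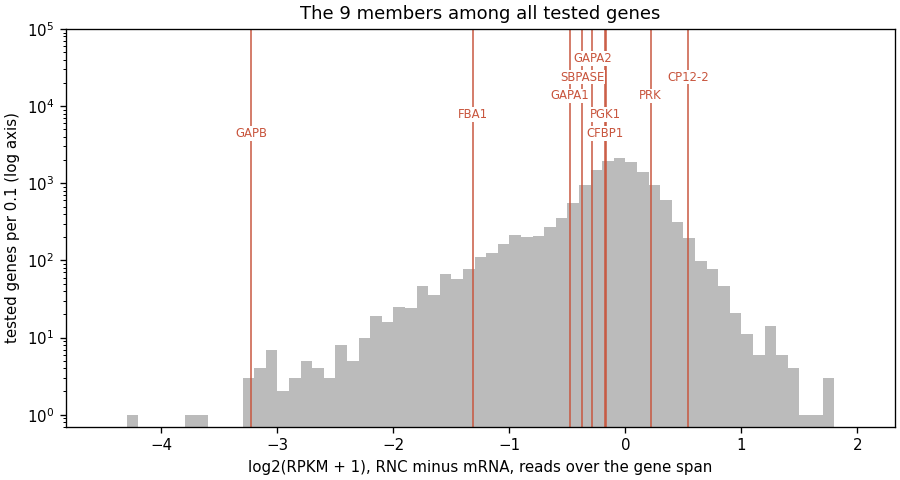
Number of tested genes per 0.1 of the difference of RNC minus mRNA (log2(RPKM + 1), reads over the gene span, log count axis), with a line at each of the 9 genes. The 6 genes from GAPA1 at -0.48 to PRK at 0.22 lie in or beside the bulk of all genes, whose quartiles are -0.29 and 0.10, and GAPB at -3.22 lies in the lower tail.

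On the deposited scale the picture was another one. There 6 of the 9 genes were called higher in RNC, 1 lower (GAPB) and 2 not called (GAPA2 and CP12-2), against 76.1% higher and 13.1% lower among 16487 genes tested. The median difference was 1.02 over the 9 genes and 0.98 over all tested genes. The deposited RNC level of GAPA1 was 3713 and 3735 RPKM with a length of 375 bases, and that of GAPA2 690 and 701 RPKM with a length of 1587 bases, although recovered reads of the pair were 66001 and 61447 against 51905 and 48815. The mRNA level of the pair stood within a factor of 1.35.

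Different transcript rows of 1 gene share their reads and differ in this length. FBA1 has 3 rows, with lengths of 1068, 426 and 360 bases, and the log2 ratio of RNC to mRNA was -0.09, 1.23 and 1.48 in them. CFBP1 has 2 rows with lengths of 447 and 720 bases and ratios of 1.97 and 1.29. The authors' deposited table gives the translational efficiency as a natural log, and it runs in the FBA1 rows from -0.0641 to 1.02. The FBA1 rows thus include both directions from the same reads. The other 7 genes have 1 row each.

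Related genes were described by lists of the pathway's other steps, on the span scale. Beside the counts of these lists stand 12.7% called higher and 29.1% called lower among all 14776 tested genes, not matched for mRNA level. Of 6 listed genes for Rubisco and its activase, 5 were tested, as RBCS1A has no row, with 3 higher in RNC, 2 lower and a median of 0.34. The 2 lower ones include the chloroplast-encoded RBCL, at only 2.34 and 2.56 RPKM in mRNA and 0.484 and 0.539 RPKM in RNC. The small-subunit genes RBCS3B and RBCS2B differed by 0.43 and -0.82 (limma adjusted p = 1.85e-05 and 7.38e-07), and RCA, for the activase that clears inhibitors from Rubisco, by 0.34 (limma adjusted p = 0.000109). The RBCS genes are near-identical neighbours, so the split between them is uncertain. With 2 times the reads all 3 would be higher, RBCS2B at 0.18.

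Of 10 further chloroplast genes of the cycle, 2 were higher, 3 lower and 5 not called, with a median of -0.05. CP12-1, another CP12 gene, was lower at -0.26 (limma adjusted p = 0.00471), with 344 and 324 RPKM in mRNA against 291 and 268 RPKM in RNC. TKL1, for transketolase, differed by 0.01 (limma adjusted p = 0.827). RPI3, for the chloroplast ribose-phosphate isomerase, was lower at -1.34 (limma adjusted p = 4.16e-07), from 156 and 147 RPKM in mRNA to 58.5 and 59.7 RPKM in RNC. With 2 times the reads CP12-1 would turn to 0.74 and TKL1 would be at 1.01, while RPI3 would stay lower at -0.36.

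Of 11 tested cytosolic and other-plastid isoforms, 0 were called higher (0 also at an unadjusted p under 0.05) and 4 lower by limma, with a median of -0.06. GAPC2 and GAPC1, the cytosolic dehydrogenases of glycolysis, differed by 0.06 and -0.38 (limma adjusted p = 0.226 and 0.000733), and FBA8, a cytosolic aldolase, by -0.15 (limma adjusted p = 0.0582). With 2 times the reads they would be at 1.06, 0.61 and 0.84, all higher. Of 7 tested genes of the chloroplast thioredoxin system, which reduces the regulated enzymes in light, 1 was higher and 3 lower, with a median of -0.16. TRXM1, TRXF1 and TRXM2, for thioredoxins of the m and f types, differed by 0.09, -0.24 and 0.22 (limma adjusted p = 0.237, 0.00686 and 0.00758). TRXF1 would turn to 0.75 with 2 times the reads and be at -1.78 without its own 3-fold raise. The other genes called lower, named after their values were seen, were TRXF2 at -1.51 and FTRA1, for a subunit of ferredoxin-thioredoxin reductase, at -3.27 (limma adjusted p = 9.32e-07 and 1.45e-07). FTRA1, at 14.8 and 12.9 RPKM in mRNA and 0.546 and 0.522 RPKM in RNC, is thus among the tested genes at or below GAPB. With 2 times the reads both would stay lower, at -0.58 and -2.84.

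All 5 genes of triose phosphate export and starch entry were lower in RNC, against 29.1% of all tested genes, with a median of -0.40. TPT, for the translocator that exports triose phosphate, differed by -0.34 (limma adjusted p = 0.000255), and APL1 and ADG1, for the large and small subunits of ADP-glucose pyrophosphorylase, by -0.25 and -1.04 (limma adjusted p = 0.005 and 7.18e-06). After centring, 4 of the 5 were still called lower. As deposited all 5 were higher, against 76.1% of all genes tested on that scale. With 2 times the reads 3 were higher and 1 lower, so the direction turns with the scale used. TPT and APL1 would turn to 0.66 and 0.74, and ADG1 would be at -0.09 with 2 times the reads and at -2.44 without its 3-fold raise. The counts of the other lists moved with the scale too. After centring, the further chloroplast genes had 4 higher and 1 lower, the isoforms 2 and 2, and the thioredoxin system 3 and 2, beside 27.2% and 17.8% of all tested genes. With 2 times the reads for all genes, they had 9 and 1, 11 and 0, and 5 and 2, and Rubisco with its activase 4 and 1, beside 85.1% and 5.66% of all tested genes.

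The genes whose 4 library levels came closest to the median profile of the Calvin cycle genes, by Euclidean distance on log2(RPKM + 1), were AT1G44575 at 0.40 and AT3G15450 at 0.43, followed by TPT at 0.47. AT1G44575 had 301 and 290 RPKM in mRNA and 201 and 214 RPKM in RNC. TPT had 290 and 281 RPKM in mRNA and 229 and 222 RPKM in RNC. The distance covers 4 libraries of whole seedlings and says only that the levels are alike.

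In the ac4C-seq data, each of the 6 plus-strand genes held cytosines with a higher T rate in the treated than in the control library. Of 66873 sites tested on the reads of the 2 libraries (Fisher's exact test, two-sided), 94.3% were called, so the call separates few listed sites. The 6 genes had 833 listed sites, of which 827 were called, and 6 of 6 genes had a called site against 33.8% of 10564 nuclear plus-strand genes. With 1 library a group, the test compares these libraries and not the treatments. Listed sites have at least 5 treated T reads, which an abundant mRNA reaches at a lower rate. No such minimum shows in the control library, where 290 of the 827 called sites had 0 T reads. The listing thus favours a higher treated rate, so the excess at listed sites is partly set by it.

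GAPA1 had 258 called sites, GAPB 220, PRK 214, SBPASE 85, CFBP1 40 and CP12-2 10. This is the order of their mRNA levels and, given per kilobase of span, runs from 118 in GAPA1 to 15.7 in CP12-2, with PRK (87.7) just above GAPB (86.5). GAPA1 held the 17th most called sites of the 10564 genes. The median number of treated reads at a called site fell in the same order. It went from 2491 in GAPA1 over 1023 in GAPB, 821 in PRK, 629 in SBPASE and 408 in CFBP1 to 366 in CP12-2. The part of depth in the number of listed sites was not tested.

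The T rates themselves were low. The median rate at called sites in the treated library was 0.833% in GAPA1, 1.03% in GAPB, 0.977% in PRK, 1.09% in SBPASE, 1.50% in CFBP1 and 1.54% in CP12-2, and in the control library it was between 0% and 0.0300%. At the median depth, the 5 T reads needed for listing are already 0.201% in GAPA1 and 1.37% in CP12-2, and this floor was lowest in the gene with the lowest median and highest in the gene with the highest. GAPB and PRK were not in that order, with floors of 0.489% and 0.609%. Over all 6 genes the median was 0.986%, against 1.23% at the 50947 called sites of other nuclear plus-strand genes. At 2000 or more treated reads, the 215 called sites of the 6 genes, 205 of them in GAPA1 and 10 in GAPB, had a median of 0.830%, and 8819 sites of other genes had 0.872%.

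**Figure D4:**
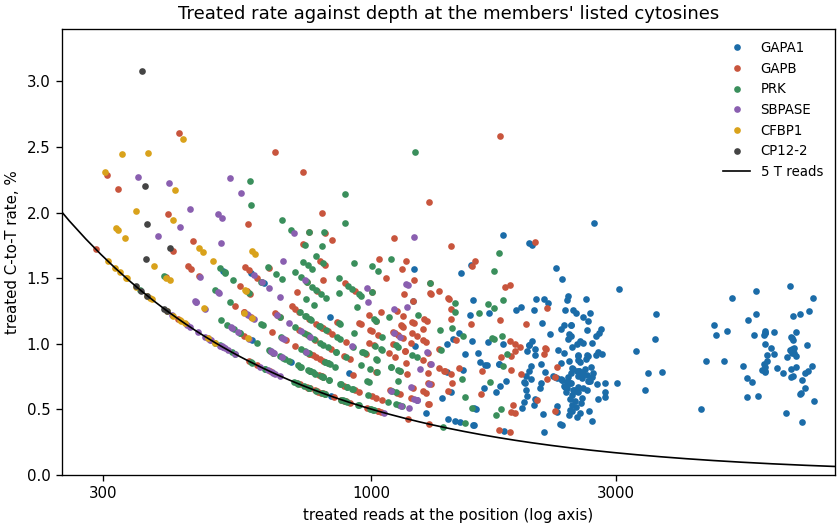
Treated C-to-T rate (percent) against treated reads at the position (log axis) for the 833 listed cytosines of the 6 plus-strand genes, with the rate of 5 T reads as a line. Points of the shallow genes CFBP1 and CP12-2 begin at the line, and those of GAPA1, the deepest at up to 7281 reads, lie between 0.323% and 1.92%.

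No called site of the 6 genes reached a treated rate of 5%, as 2129 of the 50947 sites in other genes did (4.18%). A rate of 2% was reached by 24 of the 827 sites and by 12673 of the 50947. These counts are not matched for depth, with median treated reads of 1081 in the 6 genes and 686 in the others. The highest rate was 3.08% in CP12-2 at base 195 of the gene (chromosome 3, 23091138), from 11 of 357 reads (exact 95% interval 1.55% to 5.45%), against 3 of 1049 control reads (0.286%). In GAPB the highest was 2.61% at base 1118 (chromosome 1, 16128470), from 11 of 422 reads (1.31% to 4.62%), against 2 of 3509. The intervals of the CP12-2 and GAPB sites overlap.

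In CFBP1 the highest rate was 2.56% at base 541 (chromosome 3, 20017377), from 11 of 429 reads (1.29% to 4.54%) against 2 of 1956. In PRK it was 2.46% at base 1485 (chromosome 1, 11533683), from 30 of 1218 reads (1.67% to 3.50%) against 1 of 4622. In SBPASE it was 2.27% at base 882 (chromosome 3, 20710175), from 8 of 352 reads (0.986% to 4.43%) against 0 of 1391, which allows a control rate of up to 0.216%. GAPA1, the deepest gene, had the lowest of these maxima, at 1.92% at base 851 (chromosome 3, 9795712), from 52 of 2710 reads (1.44% to 2.51%) against 9 of 10790 (0.0834%).

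The deepest called sites gave lower rates. At base 555 of GAPA1 (chromosome 3, 9795416), 41 of 7281 treated reads were T, a rate of 0.563% (0.404% to 0.763%), and 0.0417% in the control. At base 1450 of GAPB (chromosome 1, 16128802) the rate was 0.825%, from 19 of 2304 reads, and at base 1295 of PRK (chromosome 1, 11533493) it was 0.923%, from 17 of 1841 reads. In each of these genes the interval of the deepest site lies below that of the highest site, which was picked for its rate, so this is a description and no test.

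At the deepest sites of the other genes, SBPASE had 0.842% at base 1428 (11 of 1307 reads), CFBP1 1.69% at base 734 (10 of 593) and CP12-2 1.73% at base 359 (7 of 405), each with 0 T reads in the control library. Those control counts allow rates of up to 0.0625%, 0.101% and 0.284%. The intervals and limits cover counting error alone, as the reads carry no molecular identifiers and several can stem from 1 molecule.

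Listed sites lay at several places in each gene rather than at 1. In GAPA1 they ran from base 344 to base 2053 of the 2183-base span, with 112 called sites before the middle of the span and 146 after it. GAPB had 102 and 118, PRK 86 and 128, SBPASE 27 and 58, CFBP1 29 and 11, and CP12-2 4 and 6. The listed sites of CP12-2 ran only from base 181 to base 423 of its 636-base span. The largest stretch without a listed site was 289 bases in CFBP1 (base 1195 to 1484) and 282 bases in PRK (base 990 to 1272). No site of these genes lay in a second gene of the table, and exons or introns were not assigned, as no Arabidopsis annotation was used here.

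**Figure D5:**
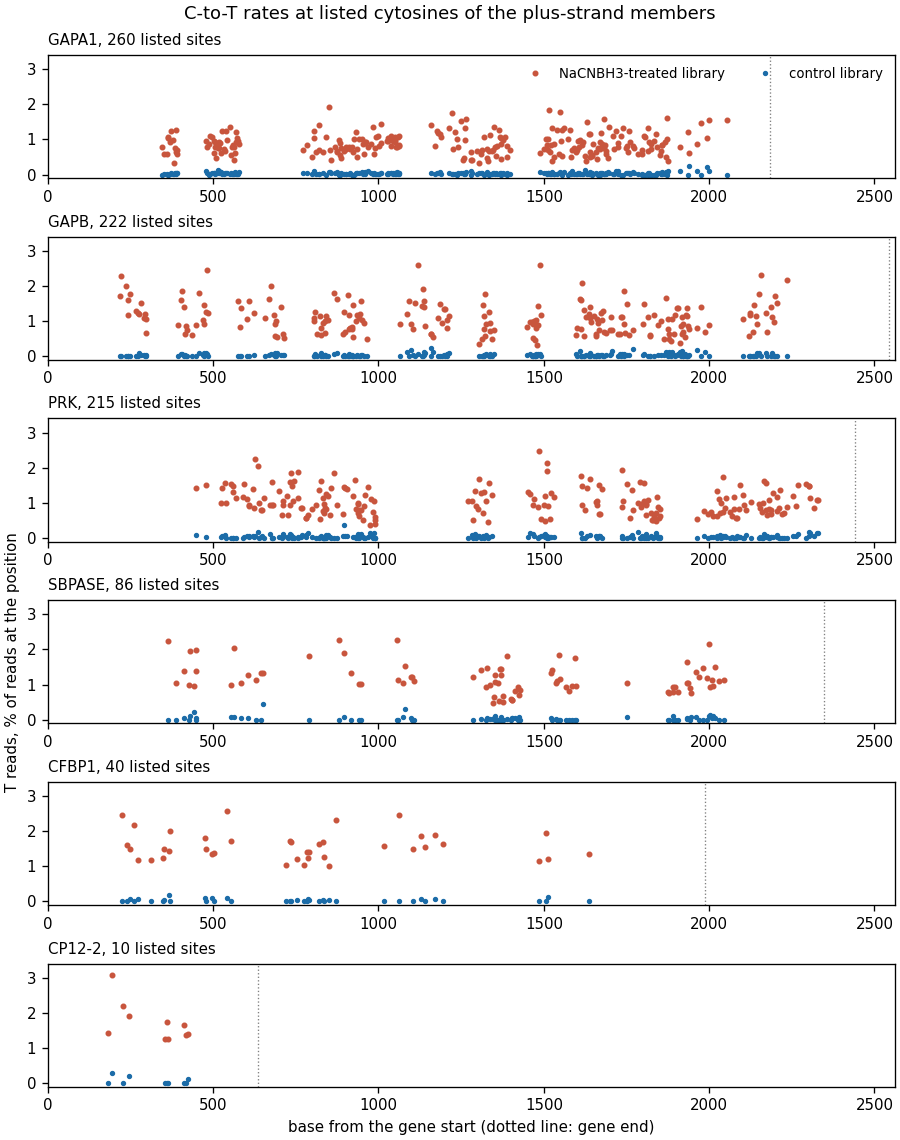
Percent of reads that are T at each listed cytosine of the 6 plus-strand genes, by base from the gene start, in the NaCNBH3-treated library (large points) and the control library (small points), with a dotted line at the gene end. Treated points stay at or below 3.08% and control points near 0%, with sites before and after the middle of every gene.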

How the data were processed

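The authors deposited RPKM per transcript for 2 mRNA and 2 RNC libraries of Col-0 seedlings, with a translational efficiency (the natural log of mean RNC over mean mRNA RPKM at 100% of rows, tolerance 1e-06). They also deposited counts of T reads and of reads at listed cytosines in 1 treated and 1 control ac4C-seq library, with p-values. With the second count read as all reads, a test of 2 proportions gives back each p-value the authors deposited (100% of sites, relative tolerance 0.001). STAR 2.5.3a, SAMtools and TAIR10 are named in the submitters' processing notes; the step each served, the counting rule and the site rule are not given in the sources used here.

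The mRNA values were whole reads over end minus start at 100% of genes (tolerance 0.01 reads). RNC reads and lengths were recovered from ratios of RNC values between libraries and transcript rows, as the smallest whole numbers with a length that is a multiple of 3. Under the smallest RNC totals, 86.0% of the lengths were even and 92.4% were multiples of 3. The totals were doubled for the even lengths, while the multiple of 3 was kept as the unit of length. This is a choice, and a factor that lowers the RNC reads of all genes was not tried. RNC reads of 21174 genes were recovered, and those of GAPB and CP12-2 were raised 3-fold by the multiple of 3.

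RPKM plus 1 on the log2 scale was fitted with limma 3.58.1 (R 4.3.3; eBayes with trend, no block), over genes averaging 1 RPKM or more, two-sided with the Benjamini-Hochberg adjustment, called under 0.05. A fold change on this scale understates the change of low genes; fold values in the text are ratios of mean RPKM. A gene's deposited RNC value is the mean over its rows. Sites needed 10 reads or more per library, were tested with Fisher's exact test (two-sided, scipy 1.17.1), adjusted over all tested sites, and called under 0.05 where the treated library had the higher rate. Intervals on rates are 95% Clopper-Pearson, and the limit at a count of 0 is 3 counts. Scripts used Python 3.11.15, numpy 2.4.6, pandas 2.3.3 and matplotlib 3.10.9, and were tested on simulated data.

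The members and lists were chosen with earlier results of these data known, and symbols were paired with gene codes from general knowledge. All members are named, up to 3 genes per other list by mean mRNA RPKM, 3 of the 5 nearest genes, and per plus-strand gene the site with the highest treated rate at 50 or more reads and the deepest one. Alternatives were the pseudocount, the filter on low values, centring, the transcript row used, the factor on RNC reads, the replicate block, each library left out, and site coverage and thresholds. The antibody pulldown and rice samples were not analysed here.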

Additional observations from a re-analysis of the deposited data

Results flagged for a closer look

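GAPA2, FBA1 and PGK1 lie on the minus strand, where a listed reference cytosine is a G of the transcript, and the comparisons above do not use such sites. They held 8 listed sites, all with a higher T rate in the treated than in the control library by the same Fisher's exact test on reads. Listing by treated T reads favours this direction here too. In FBA1, base 1573 from the gene start (chromosome 2, 9129047) had 6.10%, from 113 of 1852 reads (exact 95% interval 5.05% to 7.29%), against 139 of 5096 control reads (2.73%). In GAPA2, base 412 (chromosome 1, 4394043) had 4.34%, from 88 of 2026 reads (3.50% to 5.32%), against 71 of 3543 (2.00%). Both treated rates are above the highest one in the plus-strand genes (3.08%), and both control rates are above the highest control rate there (0.371%). The others were low. They were 0.342% at base 373 of GAPA2, 0.293% and 0.404% at bases 1446 and 1638 of FBA1, and 0.399%, 0.879% and 0.746% at bases 384, 1875 and 2007 of PGK1. Depth at these sites was 804 to 2340 treated reads.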

How the results depend on the processing

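On the span scale, with RNC totals 0.5 times as large, chosen as an alternative after seeing the data, 7 members were higher and 2 lower, and 13792 and 917 of all genes; with only the members' RNC reads multiplied by 2 the members' counts were the same 7 and 2. Both turned GAPA1 to 0.52, GAPA2 to 0.71, PGK1 to 0.83, SBPASE to 0.63 and CFBP1 to 0.82. Lengths not raised to multiples of 3, also chosen after seeing the data, left 1 member higher, turned CP12-2 to -1.03 and moved GAPB to -4.76. Centring called 4023 genes higher and 2636 lower against 1871 and 4298. Without the first RNC library, PGK1 (-0.17) and CFBP1 (-0.17) were no longer called (limma adjusted p = 0.0559 and 0.0520).

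As deposited, centring called 4 members lower, and 6379 genes higher and 7216 lower, against 12547 and 2156. It turned GAPA2 to -0.99, PGK1 to -0.77 and FBA1 to -0.032, and moved CP12-2 to -1.15. The lowest transcript row called 2 members lower and turned FBA1 to -0.092. Leaving out 1 library at a time called 1 to 2 members lower, with 2 without the first RNC library. Requiring no control T read left 290 called sites in the 6 genes and 34934 in all, and at least 1 percentage point above the control left 378 and 36217.

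With the replicate block, 1876 genes were higher and 4279 lower on the span scale, and 12511 and 2139 as deposited, and no member's call changed. The deviations of same-numbered libraries correlated at -0.0181 (span) and -0.0216 (deposited). The labels do not say whether same-numbered libraries came from the same plants, and with 2 libraries per group these correlations cannot decide it. Of the results that answer a comparison, 87 values under alternatives stayed within 1.5 times and 18 moved. Depth limits which sites can be listed: in CP12-2 the 5 T reads of a listed site are 1.37% at the median depth.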
